A study of Mus musculus with 13 samples.

Results

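The 6 samples labelled TNTProx1 fell into a pair of sets with the same label, libraries 4, 5 and 6 and libraries 1, 2 and 3, and the way these sets differ is described here. They are 6 of the 13 samples of the series, and the other 7 are labelled TNTSham. All 13 are bulk RNA of mouse tail, taken at day 28 after TNT, which is taken here to be tissue nanotransfection (delivery of nucleic acid into skin by a short electric field), from animals 12 weeks of age with tail lymphedema, a swelling of poorly drained tissue. The TNTProx1 samples carry the name of Prox1, the transcription factor of lymphatic endothelial identity, and the labels give no strain, construct, number of animals or treatment that differs between libraries 4 to 6 and 1 to 3. The labels do not tell if each sample was 1 animal, so spreads between libraries may be technical.

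The sets were chosen by the expression values of these same libraries. On the first principal component of the most variable genes TNTProx1 4, 5 and 6 stood apart from the other 10 libraries, and their counts on unspliced gene models, on Malat1 and on histone genes were seen at the same time. Every value that sets libraries 4 to 6 against 1 to 3 is therefore a description, with no p-value, and supports nothing about TNTProx1 as a treatment. A gene is called set apart here when its fold was at least 2 and the 3 values of one set did not overlap the 3 of the other. Where a library is left out the rule compares fewer values and is easier to meet, so such counts are not on a par with the others. Folds are libraries 4 to 6 over libraries 1 to 3 throughout, and levels are CPM, counts scaled to library size with TMM, the trimmed mean of M values.

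RNA from a piece of tail holds several kinds of transcript that do not behave alike in a tube or in a library. Nuclear RNAs such as Malat1 and unspliced introns stay with the nuclei, mature messenger RNAs leave them with a poly(A) tail, and the messenger RNAs of the replication-dependent histones have no such tail and end in a short conserved hairpin, the histone stem-loop, that is bound by its own protein. Short structured RNAs such as the RNA components of the enzymes RNase P and RNase MRP are made by RNA polymerase III. The tissue itself adds skin, muscle, tendon, vertebral bone and intervertebral disc in proportions that can change from piece to piece, and in bulk RNA fewer cells of a type and less RNA per cell cannot be told apart.

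The histone hairpin is shown first because the genes that carry it were, of the classes with over 10 genes, the one with the largest share set apart. A stem-loop of 16 bases was found in the transcripts of 46 of the 67 replication-dependent histone genes tested. The first 3 sequences below are the commonest, found in 26, 7 and 6 of all histone and variant genes, and the other 2 show a further stem and a further loop. Each is written 5′ to 3′ as DNA letters from the GENCODE M21 transcripts of the older mouse build GRCm38, with the 4 bases of the loop in capitals and the paired stem in lower case.
Hist1h1c and Hist1h1e: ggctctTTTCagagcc
Hist1h4d and Hist1h4h: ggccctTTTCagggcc
Hist1h1t: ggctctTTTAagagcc
Hist1h4b: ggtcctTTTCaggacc
Hist2h4: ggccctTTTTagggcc
The genes differ in the stem and in the last base of the loop, and each stem pairs with itself. In the whole of GENCODE M21 the pattern was matched in 73 of 55536 genes, or 0.131%, and 27 of these lie outside the named histone clusters.

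The 13 libraries held 29691929 to 48007392 counts, and all of libraries 4 to 6 were larger than libraries 1 to 3. Libraries 4 to 6 had 43490642, 42360429 and 48007392 counts and libraries 1 to 3 had 38345233, 34970304 and 35481774. Despite the larger totals, fewer genes had a count in libraries 4 to 6, with 24172, 28807 and 27952 genes, against 32535, 33622 and 32563 in libraries 1 to 3. TNTSham had 27854 to 33986 genes, and of libraries 4 to 6 only TNTProx1 4 lay outside that range. The lowest TNTSham values, 27854 and 28474, were in TNTSham 6 and 7, its smallest libraries by total counts. TNTProx1 4 also stood apart within its own set. Over 22876 genes the root-mean-square difference in log2 CPM was 0.62 to 0.71 among libraries 1 to 3 and 0.77 between TNTProx1 5 and 6, and 1.36 between TNTProx1 4 and either of them. Between the sets it was 1.04 to 1.79. Prox1 itself did not divide them, at 42.8, 72.9 and 29.6 CPM in libraries 1 to 3 and 18.7, 28.5 and 32.6 CPM in libraries 4 to 6, and TNTSham lay at 23.4 to 33.1 CPM.

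Over all tested genes the lower side was the larger one, and it was mostly not protein-coding. Of 22968 genes, 1514 (6.59%) were set apart higher and 3261 (14.2%) lower in libraries 4 to 6, and since the sets were chosen on such values nothing is read from these shares. Without TNTProx1 4 the counts were 1675 and 3630. Protein-coding genes gave 857 higher and 708 lower of 16047, and all other genes gave 657 higher and 2553 lower of 6921. Among the 10580 protein-coding genes with a mean of at least 10 CPM the balance was 552 higher and 165 lower. Genes higher made up 31.7% of those set apart. With upper quartile scaling, which moved log2 folds by a median of -0.14, they made up 21.8%, and with a minimum of 1 CPM in 3 samples 39.9%, so the balance between the directions depends on scaling and filter.

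Transcripts that keep introns or lie inside them were the lowest classes in libraries 4 to 6. TEC models are provisional, mostly single-exon genes that often lie in the introns of other genes. Of 1476 TEC genes tested, 1178 were set apart lower and 6 higher, and the median log2 fold was -2.10. Their share of all counts was 0.649, 0.745 and 0.565% in libraries 1 to 3 and 0.193, 0.180 and 0.136% in libraries 4 to 6. TNTSham had 0.378 to 0.701%, so libraries 4 to 6 lay below all other 10 libraries and TNTProx1 2 above all TNTSham libraries. Sense intronic RNAs, which are annotated inside introns of a gene on the same strand, were set apart lower in 194 of 238 genes and higher in 1, at a median of -2.06. Their share was 0.0778, 0.0927 and 0.0666% against 0.0340, 0.0280 and 0.0238%.

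The 6 named noncoding genes with the largest folds downwards show this at the level of single models. Gm47087, which lies within Maml2, had 32.2, 31.0 and 23.9 CPM in libraries 1 to 3 and 2.91, 5.30 and 4.63 CPM in libraries 4 to 6. Gm37472 lies within Dleu2, Gm38042 within Zfhx3 and Gm36936 within Nedd4, and their log2 folds were -2.73 ± 0.25, -2.63 ± 0.31 and -2.53 ± 0.26 (SE of the fit, as in all that follow). Gm22009, within Kpna4, had -3.01 ± 0.52. Gm10222 is a pseudogene and is described with the mitochondrial genes. Reads in such a model may belong to the unspliced transcript of the gene around it, and the sources used here do not give the strand setting of the counting.

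Long intergenic RNAs were lower in about the same share as all genes that are not protein-coding. Of 756 lincRNA genes, 278 (36.8%) were set apart lower and 19 higher, and the class took 2.29, 2.16 and 1.86% of counts in libraries 1 to 3 against 0.684, 0.649 and 0.542% in libraries 4 to 6. Antisense RNAs gave 167 lower and 13 higher of 585, and processed transcripts 126 lower and 8 higher of 379. Bidirectional promoter RNAs gave 15 lower (16.7%) and 3 higher of 90, near the 14.2% lower of all tested genes. Sense overlapping RNAs gave 5 lower and 0 higher of 12. Among genes that GENCODE M21 does not hold, 118 of 274 were lower and 27 higher. Annotated immune receptor segments, which are protein-coding pieces of antigen receptors, gave 0 lower and 1 higher of 32 and had a median of -0.01.

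**Figure D1:**
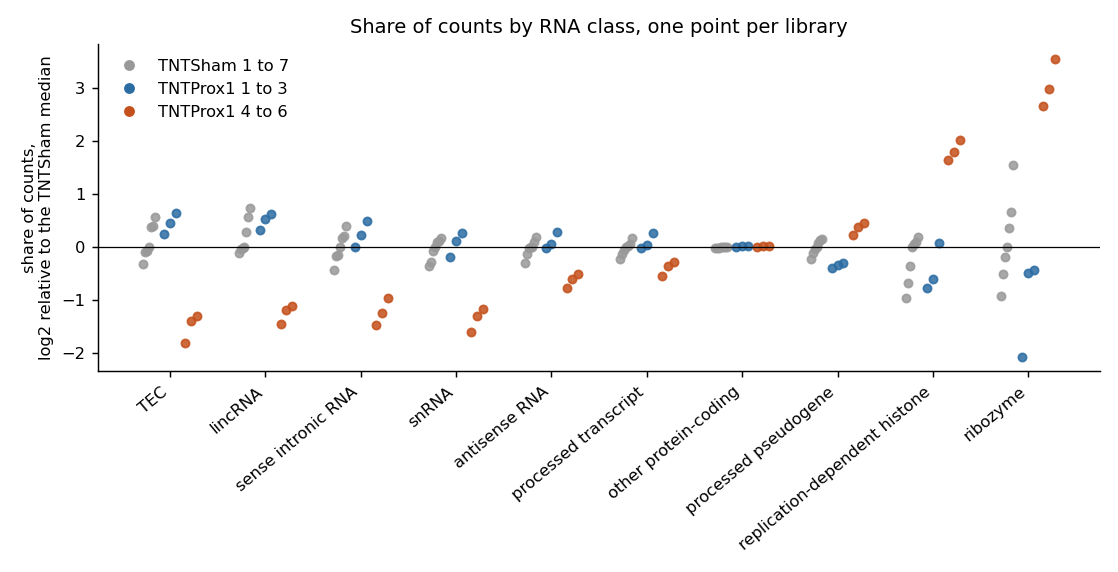
Share of counts taken by 10 RNA classes, as log2 of the share over the TNTSham median, with one point per library (grey TNTSham 1 to 7, blue TNTProx1 1 to 3, orange TNTProx1 4 to 6). The orange points lie below all others for TEC, lincRNA, sense intronic RNA and snRNA and above all others for processed pseudogenes, histones and the ribozyme class, while the protein-coding share is nearly level.

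Malat1 held most of the lincRNA counts. This very abundant RNA of nuclear speckles had 16602, 13304 and 12666 CPM in libraries 1 to 3 and 3539, 3469 and 3410 CPM in libraries 4 to 6, a log2 fold of -2.03 ± 0.21. TNTSham had 8979 to 16814 CPM. Libraries 4 to 6 were close to one another and below every other library. In the list of nuclear-retained and imprinted long noncoding RNAs 11 of 17 were set apart lower, 0 higher, and all 17 had a log2 fold below 0 (median -1.45).

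Within that list RNAs of like abundance had unlike folds. Neat1, the scaffold of paraspeckles, had 3021, 2682 and 3495 CPM against 661, 826 and 355 CPM (-2.32 ± 0.32). Meg3 and Mirg, which come from the same imprinted locus, had -2.26 ± 0.24 and -2.26 ± 0.31, and Rian, from that locus too, -1.21 ± 0.24. Kcnq1ot1, the antisense silencer of an imprinted domain, had 232, 221 and 203 CPM against 49.2, 45.9 and 49.3 CPM. Airn had -1.97 ± 0.26 and Miat -2.10 ± 0.29. Tug1 and Peg13 did not share the difference, with -0.03 ± 0.12 and -0.14 ± 0.13, and Tug1 had 238, 207 and 235 CPM against 219, 214 and 234 CPM. H19, an imprinted RNA found largely in the cytoplasm, had -0.37 ± 0.31 with overlapping libraries. Members named here beyond Malat1, Neat1, Meg3 and Mirg were chosen after their values were seen.

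Host genes of small nucleolar RNAs are spliced transcripts whose introns yield the small RNAs, and they differed less. Of 14 tested, 3 were set apart lower and 0 higher, at a median of -0.35, and without TNTProx1 4 it was 1 lower. Gas5 had 79.7, 64.6 and 64.8 CPM in libraries 1 to 3 and 36.3, 30.6 and 34.7 CPM in libraries 4 to 6, a log2 fold of -1.04 ± 0.14. Snhg1 had -0.47 ± 0.19 with no overlap but under the fold of 2, at 29.5, 20.6 and 23.2 CPM against 20.1, 14.7 and 18.1 CPM.

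Small structured RNAs went in opposite directions. Of 49 snRNA genes 31 were set apart lower and 1 higher, of 14 scaRNA genes 9 lower and 1 higher, of 82 microRNA genes 50 lower and 2 higher, and of 111 snoRNA genes 54 lower and 5 higher. The snoRNA share of counts did not follow the count of genes, at 0.0207, 0.0283 and 0.0169% in libraries 1 to 3 and 0.0503, 0.0277 and 0.0387% in libraries 4 to 6, which overlap. Many of these genes lie in introns, so a count in them may come from the mature small RNA or from the transcript around it. The microRNA and snRNA shares were lower without overlap, the former at 0.0122, 0.0122 and 0.0100% against 0.00903, 0.00538 and 0.00706%.

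Rpph1, the RNA of RNase P, which trims the ends of transfer RNAs, had the largest named fold of the comparison. It stood at 30.6, 213 and 302 CPM in libraries 1 to 3 and at 6164, 3352 and 4708 CPM in libraries 4 to 6, a log2 fold of 4.71 ± 0.79. TNTSham ranged from 90.4 to 1346 CPM. The level varied widely within TNTSham and libraries 1 to 3 and less within libraries 4 to 6, which lay above all others. Rmrp, the RNA of RNase MRP, had 104, 150 and 138 CPM against 365, 350 and 385 CPM (1.49 ± 0.16), with TNTSham at 104 to 420 CPM and so overlapping both sets. Rmrp is annotated as 2 overlapping genes with nearly the same counts, of which the values of one are given. Rny1, a component of Ro particles, had 0.492, 0.566 and 0.439 CPM against 1.55, 0.750 and 1.57 CPM, at levels where counting error is large. The list of abundant RNA polymerase III and nuclear small RNAs had 3 of 4 tested members set apart higher and 0 lower. The remaining member, Rny3, had 0.23 ± 0.65. The annotated ribozyme class holds 20 genes in the table, of which Rpph1 and the other Rmrp annotation were tested, and its share of counts was 0.0136, 0.0403 and 0.0423% against 0.667, 0.361 and 0.451%.

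Ccnb1ip1, a ubiquitin ligase of meiotic recombination, had the largest fold of the named protein-coding genes other than histones, and it overlaps Rpph1 on the same strand. Its levels were 6.40, 48.4 and 62.3 CPM against 632, 439 and 619 CPM (3.85 ± 0.73), and TNTSham lay at 17.1 to 226 CPM. It had its lowest value in the library with the least Rpph1, TNTProx1 1. Reads of Rpph1 and Ccnb1ip1 cannot be told apart in these counts. The noncoding gene Gm25395, which lies within Atg16l1, had 1.32, 3.99 and 1.14 CPM against 27.4, 11.1 and 26.5 CPM. The other 4 genes with the largest folds upwards outside the annotated protein-coding set are not in GENCODE M21, so their class is not known here, among them ENSMUSG00000119262 with 2.33, 8.25 and 2.55 CPM against 76.8, 15.4 and 31.0 CPM.

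The replication-dependent histone genes were higher in libraries 4 to 6 almost without exception. Of 67 genes 65 were set apart higher and 0 lower, and the median log2 fold was 2.88, a fold of 7.37. As a class they took 0.0189, 0.0213 and 0.0342% of counts in libraries 1 to 3 and 0.102, 0.112 and 0.130% in libraries 4 to 6, with TNTSham at 0.0166 to 0.0369%. The genes with a stem-loop found gave 45 of 46 at a median of 2.82, and those in whose GENCODE transcripts it was not found gave 20 of 21 at 3.05. A missing match says only that these letters are not in the annotated transcript, whose end is often not the end of the RNA.

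The histone gene with the highest level coded for a linker histone. Hist1h1c, an H1 gene that is also expressed outside S phase, had 40.7, 44.3 and 53.8 CPM in libraries 1 to 3 and 102, 132 and 142 CPM in libraries 4 to 6 (1.44 ± 0.17). Hist1h1e had 15.7, 11.2 and 20.5 CPM against 45.2, 48.1 and 68.7 CPM (1.77 ± 0.26), and it overlaps Hist1h2be in the annotation. Hist1h1d had 2.04 ± 0.40. In each of these genes the lowest of libraries 4 to 6 was above the highest of libraries 1 to 3.

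Core histone genes, which build the nucleosome, had log2 folds from -0.06 to 4.56. Hist1h4h, a gene for H4, had 4.12, 5.30 and 9.34 CPM against 35.1, 49.4 and 53.4 CPM (2.88 ± 0.33). Hist1h4d had 5.10, 8.05 and 17.8 CPM against 51.9, 52.2 and 65.7 CPM (2.46 ± 0.43), and the H2B gene Hist1h2bc, in which no stem-loop was found, 1.58 ± 0.26. The H2A genes Hist1h2ag and Hist1h2ae were nearly absent from libraries 1 to 3, at 0.181 to 0.527 CPM and 0.0777 to 0.263 CPM, and stood at 6.15 to 8.25 CPM and 2.77 to 5.10 CPM in libraries 4 to 6. Hist1h2aa, the H2A gene with the largest log2 fold, rested on few reads, with at most 0.117 CPM in libraries 1 to 3 and 1.40 to 1.76 CPM in libraries 4 to 6. Histone genes are close copies of each other, so reads may have been lost from them or shared among them, and the sources used here do not say how such reads were counted.

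The 2 histone genes that were not set apart, named after their values were seen, were Hist2h2be and Hist1h1t. Hist2h2be had 5.36, 5.25 and 5.06 CPM against 2.77, 7.31 and 4.98 CPM (-0.06 ± 0.35). Hist1h1t, the testis linker histone shown above, had at most 0.658 CPM in any TNTProx1 library.

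Histone genes whose messenger RNAs carry a poly(A) tail differed less. Of 10 such variants 3 were set apart higher (H2afz, H2afx and H2afj, named after their values were seen), 0 lower, and the median was 0.95. H2afx is the only one of the 10 in whose transcript the stem-loop was also found. H3f3b, one of the genes for the replacement histone H3.3, had 302, 242 and 306 CPM against 411, 402 and 432 CPM (0.55 ± 0.14), and H3f3a had 124, 123 and 137 CPM against 268, 253 and 220 CPM (0.95 ± 0.13). H2afz had 31.9, 36.9 and 41.3 CPM against 105, 90.4 and 86.4 CPM. The macroH2A genes H2afy and H2afy2 had 0.03 ± 0.16 and 0.04 ± 0.27.

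Genes that act on histone messages or mark dividing cells did not show differences of that size. Of 15 tested factors of histone mRNA processing 0 were set apart in either direction, and the median was -0.00. Sympk, a scaffold of the cleavage complex, had 0.09 ± 0.17 and Srrt, which links capped RNAs to processing, -0.35 ± 0.14. Of 33 cell cycle genes 6 were set apart higher and 0 lower at a median of 0.71, and 32 had a log2 fold above 0. After a linear trend with length, GC content and span was removed, all 33 lay above 0, at a median of 0.65. Their summed level overlapped, at 1141, 528 and 692 CPM in libraries 1 to 3 and 997, 1039 and 1240 CPM in libraries 4 to 6. Mki67, a marker of cycling cells, had 252, 94.3 and 143 CPM against 133, 141 and 216 CPM (0.00 ± 0.36), and the topoisomerase gene Top2a had 0.67 ± 0.34. Without TNTProx1 1, 17 of the 33 were set apart higher, and without TNTProx1 2 or with upper quartile scaling 3. Nuclear protein-coding genes other than these histones gave 1022 higher without TNTProx1 1 and 747 without TNTProx1 2, against 792 with all libraries. The 21 tested genes outside the named histone clusters with a match to the hairpin pattern gave 3 higher and 3 lower at a median of -0.11.

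**Figure D2:**
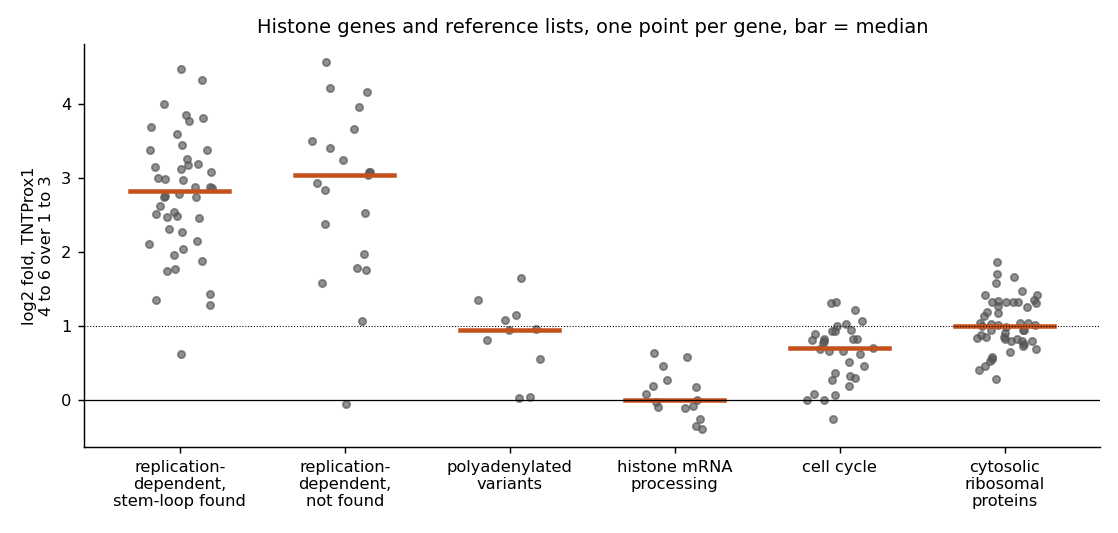
Log2 fold of TNTProx1 4 to 6 over 1 to 3 for single genes of 6 lists, with each point a gene, the bar the median and the dotted line a fold of 2. The replication-dependent histones centre on 2.82 where the stem-loop was found and 3.05 where it was not, against 0.95 for the polyadenylated variants, 0.71 for cell cycle genes and 1.01 for ribosomal proteins.

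Among protein-coding genes the fold varied with the length of the longest annotated transcript. Length, GC content and exon number were all taken from that transcript, which need not be the mature message. For Amn1, for example, it has 15841 bases in 1 exon, in a gene that spans 31566 bases. The 16034 genes with an annotated length were cut into 5 classes of equal size. The class with the shortest transcripts, up to 1859 bases, had a median log2 fold of 0.50, and the classes after it had 0.24, 0.10, -0.05 and, above 5168 bases, -0.29. In the shortest class 523 genes were set apart higher and 113 lower, and in the longest class 2 higher and 214 lower. Across genes, which are not independent replicates, Spearman's rho between log2 fold and length was -0.43. The span of the gene on the chromosome, introns included, gave -0.39 and medians from 0.46 to -0.27, the number of exons gave -0.27, and the GC content of the transcript gave 0.23 with medians from -0.07 to 0.34.

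Span showed a gradient within genes of like transcript length. Among the shortest transcripts, the 1069 genes with the smallest span had a median of 0.66 and the 1069 with the largest 0.34. Among the longest transcripts the corresponding medians were -0.13 and -0.46. A linear trend in log2 length, GC content and log2 span accounted for 14.7% of the variance of the log2 folds of 15967 genes, so most of the variation between genes was not along these features.

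The gradient was present in each library of the set. Taking each library against the mean of all 13, the median of the shortest class minus that of the longest was 0.60, 0.58 and 0.38 on the log2 scale in libraries 4 to 6, and -0.36, -0.20 and -0.18 in libraries 1 to 3. The 7 TNTSham libraries had -0.24 to 0.23, below libraries 4 to 6, and TNTSham 5 lay within the range of libraries 1 to 3. The sources used here give no measure of RNA quality, and its part in this gradient was not tested.

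**Figure D3:**
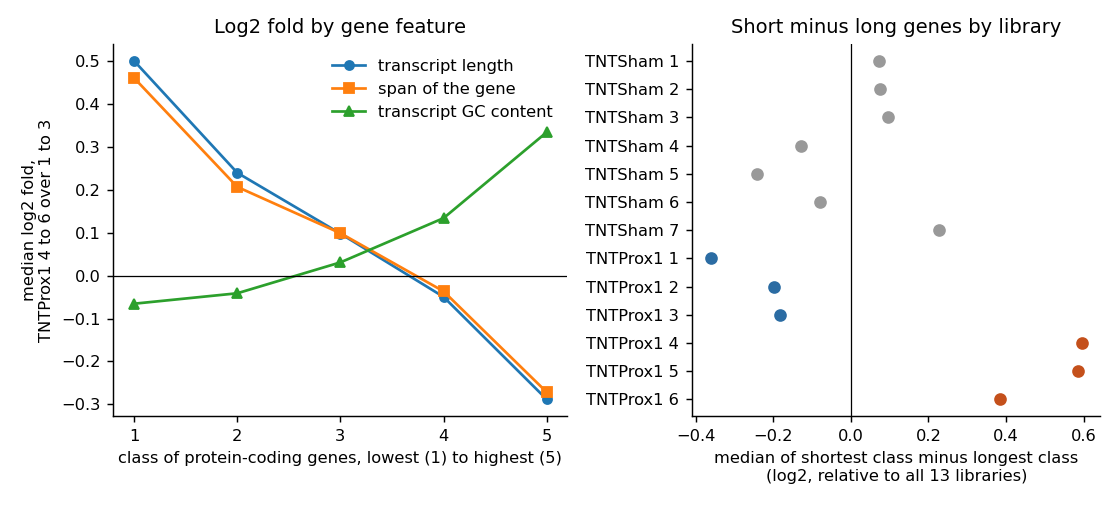
Left, median log2 fold of TNTProx1 4 to 6 over 1 to 3 in 5 equal classes of protein-coding genes ordered by transcript length, gene span or GC content. Right, for each library, the median of the shortest class minus that of the longest class in log2 relative to all 13 libraries, where TNTProx1 4 to 6 lie at 0.38 to 0.60 and all others at 0.23 or below.

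Short, highly expressed housekeeping genes also stood higher, by less than the histone genes. Of 50 cytosolic ribosomal protein genes 26 were set apart higher and 0 lower, and all 50 had a log2 fold above 0 (median 1.01, or 0.59 after the trend with length, GC content and span was removed). The number of these genes set apart depended on scaling, at 19 with DESeq2 size factors and 18 with upper quartile scaling. Their summed level was 7306, 7926 and 8543 CPM in libraries 1 to 3 and 16931, 15946 and 16456 CPM in libraries 4 to 6, with TNTSham at 9427 to 14405 CPM. Rplp2, a protein of the ribosomal stalk, had 42.2, 68.3 and 113 CPM against 285, 251 and 281 CPM (1.87 ± 0.33). Rps14 had 1.70 ± 0.31 and Rplp1, the partner of Rplp2, 1.67 ± 0.28. Nuclear genes of the respiratory chain gave 13 higher and 0 lower of 45 at a median of 0.85 (0.45 after removing the trend), with the ATP synthase genes Atp5b at 0.88 ± 0.16 and Atp5a1 at 0.71 ± 0.13.

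Processed pseudogenes, which are copies of messenger RNAs without introns, stood on the same side. Of 2361 tested, 531 were set apart higher and 231 lower, at a median of 0.58, and the class took 1.06, 1.08 and 1.01% of counts in libraries 1 to 3 and 1.83, 1.72 and 1.55% in libraries 4 to 6. Reads of a messenger RNA can align to its copies, and their counts cannot be told apart from those of the parent genes. Other pseudogenes gave 34 higher and 96 lower of 440, with overlapping shares.

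Mitochondrially encoded messenger RNAs did not move as one. Together they had 11929, 5645 and 11902 CPM in libraries 1 to 3 and 7648, 8338 and 11400 CPM in libraries 4 to 6, which overlap, while TNTSham had 12247 to 19959 CPM. Of 13 genes 4 were set apart lower and 0 higher, and 7 were lower without TNTProx1 2 or without TNTProx1 6. mt-Nd4l, a small subunit of complex I, had 42.2, 41.8 and 39.8 CPM against 2.77, 1.84 and 6.82 CPM (-3.44 ± 0.45), the largest named fold downwards among protein-coding genes. Its TNTSham values ranged from 6.45 to 141 CPM. mt-Atp8 had 65.6, 47.9 and 82.7 CPM against 18.3, 10.1 and 27.1 CPM (-1.82 ± 0.36), mt-Nd2 -1.54 ± 0.42 and mt-Nd6 -1.29 ± 0.22.

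The abundant cytochrome oxidase messages were not lower. mt-Co1 had 5666, 2694 and 5884 CPM against 3997, 4684 and 6313 CPM (0.07 ± 0.33) and mt-Co3 1284, 589 and 1265 CPM against 1530, 1604 and 1723 CPM (0.63 ± 0.29). Both mt-Nd4l and mt-Atp8 overlap a neighbouring gene in the annotation, mt-Nd4 and mt-Atp6, and mitochondrial genes have nuclear copies, so how shared reads were assigned matters most for them. The pseudogene Gm10222 had 42.5, 42.4 and 41.6 CPM against 3.81, 2.88 and 7.50 CPM, values close to those of mt-Nd4l in each TNTProx1 library. The mitochondrial ribosomal RNAs, of which 2 were tested, and 9 transfer RNA genes gave 0 set apart in either direction.

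Most skeletal muscle genes had a log2 fold above 0, by unlike amounts, with 24 of 26 above 0 and 2 below. Of 26 tested, 11 were set apart higher in libraries 4 to 6 and 1, Ttn, lower, at a median of 0.95. The summed level of the list overlapped and lay lower on average, at 13113, 5638 and 8543 CPM against 6567, 7148 and 7953 CPM, and Ttn was the largest part of it in libraries 1 to 3. Ttn, the giant elastic protein of the sarcomere with an annotated transcript of 106824 bases, had 8871, 3854 and 5161 CPM against 1974, 2127 and 3004 CPM (-1.33 ± 0.34), and it was not set apart without TNTProx1 1. Neb, also a giant, had 1533, 644 and 1076 CPM against 621, 749 and 1113 CPM (-0.39 ± 0.34).

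The 3 muscle genes given first were chosen from the list as its largest folds upwards, not by length. Ckm, the muscle creatine kinase, had 38.7, 18.5 and 41.7 CPM against 221, 158 and 119 CPM (2.33 ± 0.35). Its annotated transcript of 2742 bases was near the list median of 2814.5. Pvalb, the calcium buffer of fast fibres, had 57.0, 25.3 and 30.0 CPM against 129, 120 and 97.7 CPM (1.63 ± 0.30), and Actn3, the fast-fibre alpha-actinin, had 1.57 ± 0.31. The myosin heavy chain genes Myh1, Myh2, Myh4 and Myh7, named after their values were seen, had 0.18 to 0.34 with overlapping libraries. Across the 26 genes Spearman's rho between log2 fold and transcript length was -0.44, near the -0.43 of all protein-coding genes. It was not particular to muscle, since fibroblast and dermal matrix genes had -0.77 and basal epidermis -0.74, while osteoclast genes had -0.17 and tendon -0.14. After the trend was removed the muscle median was 0.74 with 23 of 26 above 0. TNTSham summed to 10591 to 19347 CPM. Myl2, the light chain of slow fibres, had 6.11, 5.01 and 2.17 CPM against 28.6, 18.3 and 6.13 CPM, where the lowest of libraries 4 to 6 barely exceeded the highest of libraries 1 to 3.

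Most epidermal genes stood higher in libraries 4 to 6, and TNTProx1 2 decided much of the size. Of 20 genes of the differentiated epidermis 8 were set apart higher and 0 lower at a median of 1.04, and of 13 genes of the activated epidermis 6 higher and 0 lower at 1.40. Without TNTProx1 2 these were 5 of 20 at 0.60 and 5 of 13 at 0.88, and without TNTProx1 1 12 of 20 at 1.44 and 11 of 13 at 2.87. With upper quartile scaling 5 of the 20 and 4 of the 13 were set apart higher, and with DESeq2 size factors 8 of the 20 and 4 of the 13. Sums of the differentiated list overlapped. They were 35512, 8899 and 24963 CPM in libraries 1 to 3 and 31015, 30912 and 67577 CPM in libraries 4 to 6. TNTProx1 4 and 5 were thus below TNTProx1 1 and also below TNTSham, which had 32407 to 48694 CPM. The activated list summed to 11702, 964 and 2340 CPM in libraries 1 to 3 and 11568, 14586 and 12927 CPM in libraries 4 to 6. TNTProx1 1 therefore lay at the level of libraries 4 to 6 in this list. TNTSham had 2979 to 18107 CPM, but only TNTSham 1 reached that level. The next highest, TNTSham 5, had 10064 CPM, below all of libraries 4 to 6.

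In the single epidermal genes whose levels are given here TNTProx1 2 was again the lowest TNTProx1 library. Casp14, a protease of terminal differentiation, had 87.8, 16.8 and 46.1 CPM against 143, 129 and 239 CPM (1.76 ± 0.54), Calml3 1.52 ± 0.36 and Klk5, a protease of shedding skin, 1.48 ± 0.37. Stfa1, a protease inhibitor, had 73.5, 10.2 and 16.2 CPM against 120, 94.2 and 134 CPM (1.80 ± 0.67). Unlike in the sums of their lists, TNTProx1 1 lay below all of TNTProx1 4 to 6 in Casp14 and Stfa1. Both genes were named for the size of their folds, which favours such a gap. Sprr1b and Sprr2h, cross-linked proteins of the cornified envelope, had 1.72 ± 0.87 and 1.67 ± 0.69. Krt14, the keratin of the basal layer, had 2502, 479 and 1568 CPM against 4457, 5198 and 4519 CPM (1.64 ± 0.52). The basal list of 12 genes gave 2 higher and 0 lower (5 higher without TNTProx1 1 and 1 without TNTProx1 2), and Krt5 had 1.17 ± 0.48. Some genes of the differentiated layers did not stand higher beyond their SE. Flg2 had -0.44 ± 0.58 and Krt2 0.06 ± 0.41, both named after their values were seen.

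Leaving histones aside, several of the 12 protein-coding genes with the largest folds upwards are known from the epidermis. Lce3c and Cnfn are proteins of the cornified envelope, Slurp1 is a secreted keratinocyte peptide, Il1f6 an epidermal cytokine of the interleukin 1 family, and Trex2 a keratinocyte exonuclease. Cnfn had 17.0, 7.15 and 16.4 CPM against 51.9, 54.5 and 93.6 CPM (2.30 ± 0.38), and Slurp1 10.5, 12.3 and 22.5 CPM against 62.4, 44.8 and 114 CPM. Lce3c had 2.62 ± 0.72, Il1f6 2.31 ± 0.62, Trex2 2.16 ± 0.39 and Cysrt1 2.03 ± 0.48. The others were Dpm3, a small subunit of dolichol phosphate mannose synthase (2.55 ± 0.64), Dohh, an enzyme of hypusine formation (2.14 ± 0.22), and Akr1d1, a steroid reductase (2.06 ± 0.65), besides Ccnb1ip1, Ckm and Myl2 described above.

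Genes of cartilage and disc were lower in libraries 4 to 6. Of 17 tested, 6 were set apart lower and 0 higher at a median of -0.72, and their summed level was 1328, 1359 and 1685 CPM against 731, 856 and 829 CPM with no overlap. TNTSham, at 638 to 1359 CPM, overlapped both sets. Col2a1, the main collagen of cartilage, had 186, 159 and 291 CPM against 38.9, 75.1 and 66.9 CPM (-1.82 ± 0.31). T, the notochord factor brachyury, had 4.89, 6.81 and 9.43 CPM against 3.42, 1.72 and 0.776 CPM, and Ucma, a cartilage matrix protein, had at most 1.99 CPM in any TNTProx1 library.

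Length did not order the cartilage genes as it did the muscle genes and protein-coding genes in general. Their Spearman's rho between log2 fold and transcript length was -0.05, and removing the trend gave a median of -0.85. Without TNTProx1 4 the number set apart was 3 of 17, and without TNTProx1 5 it was 9. Comp and Sox9, the pericellular matrix protein and the master regulator of cartilage, had -0.12 ± 0.17 and 0.13 ± 0.24, both named after their values were seen. Prg4, the lubricating proteoglycan of joint surfaces and one of the 12 largest folds downwards, had 301, 243 and 390 CPM against 95.0, 87.4 and 86.4 CPM (-1.80 ± 0.19).

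**Figure D4:**
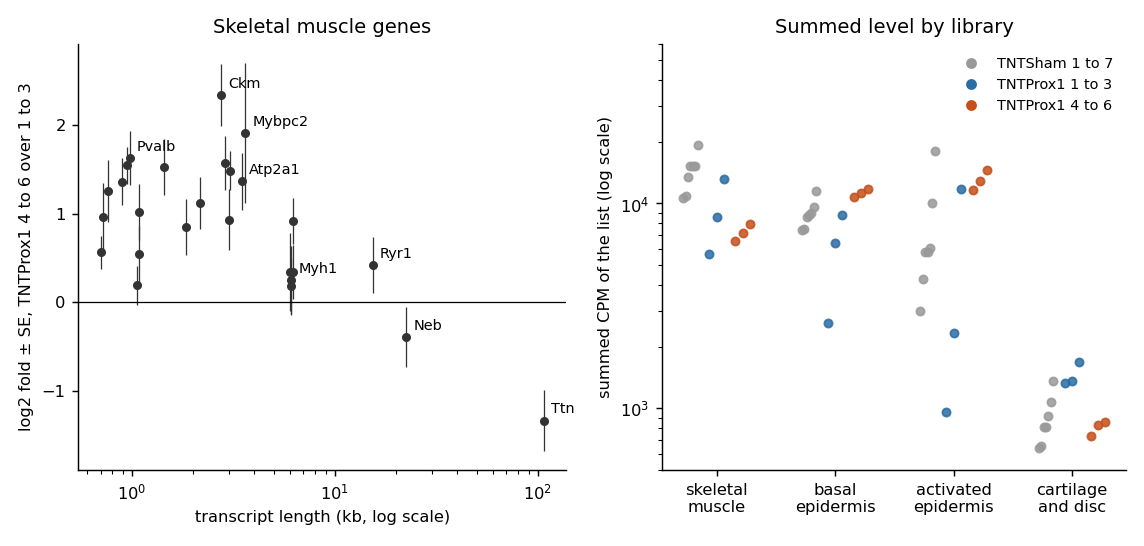
Left, log2 fold and SE of 26 skeletal muscle genes against transcript length on a log axis, from Ckm at 2.33 to Ttn at -1.33. Right, summed CPM of 4 tissue lists in each library on a log axis (grey TNTSham 1 to 7, blue TNTProx1 1 to 3, orange TNTProx1 4 to 6), where of these 4 lists cartilage and disc and basal epidermis keep the blue and orange points apart.

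Tendon and bone genes had no member or few past the fold. Over all protein-coding genes 5.34% were set apart higher and 4.41% lower, so few are awaited in lists of this size. Tendon gave 0 of 10 in either direction at a median of -0.37, although the summed levels did not overlap, at 4401, 4313 and 5549 CPM against 3169, 3323 and 3451 CPM. Fmod, a collagen-binding proteoglycan, had 1700, 2121 and 2262 CPM against 1479, 1491 and 1355 CPM, and Tnc, tenascin C, -0.49 ± 0.24. Osteoblast genes gave 0 higher and 1 lower of 14 at -0.32, with Spp1 at -0.16 ± 0.16 and Ibsp at -0.56 ± 0.19. Osteoclast genes gave 0 of 15 in either direction at -0.20, with Ctsk at 0.11 ± 0.20 and Mmp9 at -0.09 ± 0.35.

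Of the vessel lists, blood endothelium was among the flattest, and lymphatic endothelium lay lower, with 12 of 16 genes below 0. Blood endothelium gave 0 of 19 in either direction at a median of -0.04, with Cdh5 and Pecam1, junction proteins of endothelium, at 0.04 ± 0.24 and 0.06 ± 0.17. Lymphatic endothelium gave 0 higher and 1 lower of 16 at -0.35, with the scavenger receptor Stab1 at -0.07 ± 0.17 and the semaphorin and Vegfc receptor Nrp2 at -0.61 ± 0.16. Without TNTProx1 2 the lymphatic median was -0.00. Smooth muscle and pericyte genes gave 2 higher and 0 lower of 15 at 0.24, with Rgs5 at 0.48 ± 0.27 and Pdgfrb at -0.38 ± 0.26, and without TNTProx1 6 the median was -0.05.

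Fibroblast and dermal matrix genes gave 0 of 21 in either direction at -0.13, and their sign turned with the library left out (0.11 without TNTProx1 3). Col1a1, the main collagen of dermis and bone, ranged from 17617 to 58102 CPM within libraries 1 to 3 and from 14798 to 31352 CPM within libraries 4 to 6, so the spread inside each set exceeded the difference between them. Col1a2 had -0.48 ± 0.38. Adipocyte genes gave 1 higher and 0 lower of 15 at 0.46 (0.22 after removing the trend), with Car3 at 0.46 ± 0.16. Cfd, adipsin, had 41.6, 114 and 55.2 CPM against 148, 151 and 125 CPM.

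Appendages and nerve gave few genes past the fold, in lists too short to set against the 5.34% higher and 4.41% lower of all protein-coding genes. Hair shaft genes gave 0 of 20 in either direction at 0.60 (0.26 after removing the trend), but 5 higher without TNTProx1 3 and 3 without TNTProx1 4, and Krt71 and Tchh of the inner root sheath had 0.69 ± 0.60 and -0.56 ± 0.55. Sebaceous gland genes gave 1 higher and 0 lower of 16 at 0.59, with Scd1 at 0.13 ± 0.27 and Krt79 at 0.62 ± 0.30. Without TNTProx1 3 the sebaceous count was 5 and that of melanocytes 4. Melanocyte genes gave 1 higher and 0 lower of 10 at 0.41, with Kit at -0.44 ± 0.16 and Mitf at -0.31 ± 0.20. Schwann cell genes gave 0 of 17 in either direction at 0.19, with Pmp22 at 0.26 ± 0.12 and Scn7a at -0.50 ± 0.18.

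Blood and immune cell lists had few genes set apart, as did protein-coding genes as a whole, at 5.34% higher and 4.41% lower. Nothing is read from these small counts. Macrophage genes gave 0 of 17 in either direction at -0.08, with the lysozyme gene Lyz2 at 0.45 ± 0.28 and the mannose receptor Mrc1 at -0.37 ± 0.21. Antigen-presenting and Langerhans cell genes gave 0 of 12 at 0.33 (Cd74 0.11 ± 0.32, H2-Aa 0.26 ± 0.30), and mast cell genes 0 of 11 at 0.37 (Mcpt4 0.44 ± 0.22, Cpa3 0.58 ± 0.23). T cell genes gave 1 higher and 0 lower of 17 at 0.27, with Trbc2 at 1.10 ± 0.26 and Cd4 at -0.59 ± 0.28. Neutrophil genes gave 0 higher and 1 lower of 11 at -0.20, with S100a8 and S100a9, which keratinocytes also make, at 1.09 ± 0.50 and 0.59 ± 0.49.

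B and plasma cell genes gave 0 higher and 2 lower of 12 at -0.38, and the median was 0.50 without TNTProx1 2. Their summed level went the other way from the median and did not overlap, at 339, 320 and 362 CPM against 543, 633 and 510 CPM. Sdc1, which keratinocytes also express, held most of it in each library, at 282, 194 and 328 CPM against 474, 581 and 470 CPM. Ighm had -0.24 ± 0.40. Erythroid genes, of which 7 of 15 were tested, gave 0 higher and 1 lower at -0.55, with Tfrc at 0.05 ± 0.15 and Alas2 at -0.55 ± 0.50. Hox genes of tail position gave 0 of 11 in either direction at 0.18, and after the trend was removed -0.24, with Hoxc13 at 0.67 ± 0.19 and Hoxd9 at 0.66 ± 0.24.

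**Figure D5:**
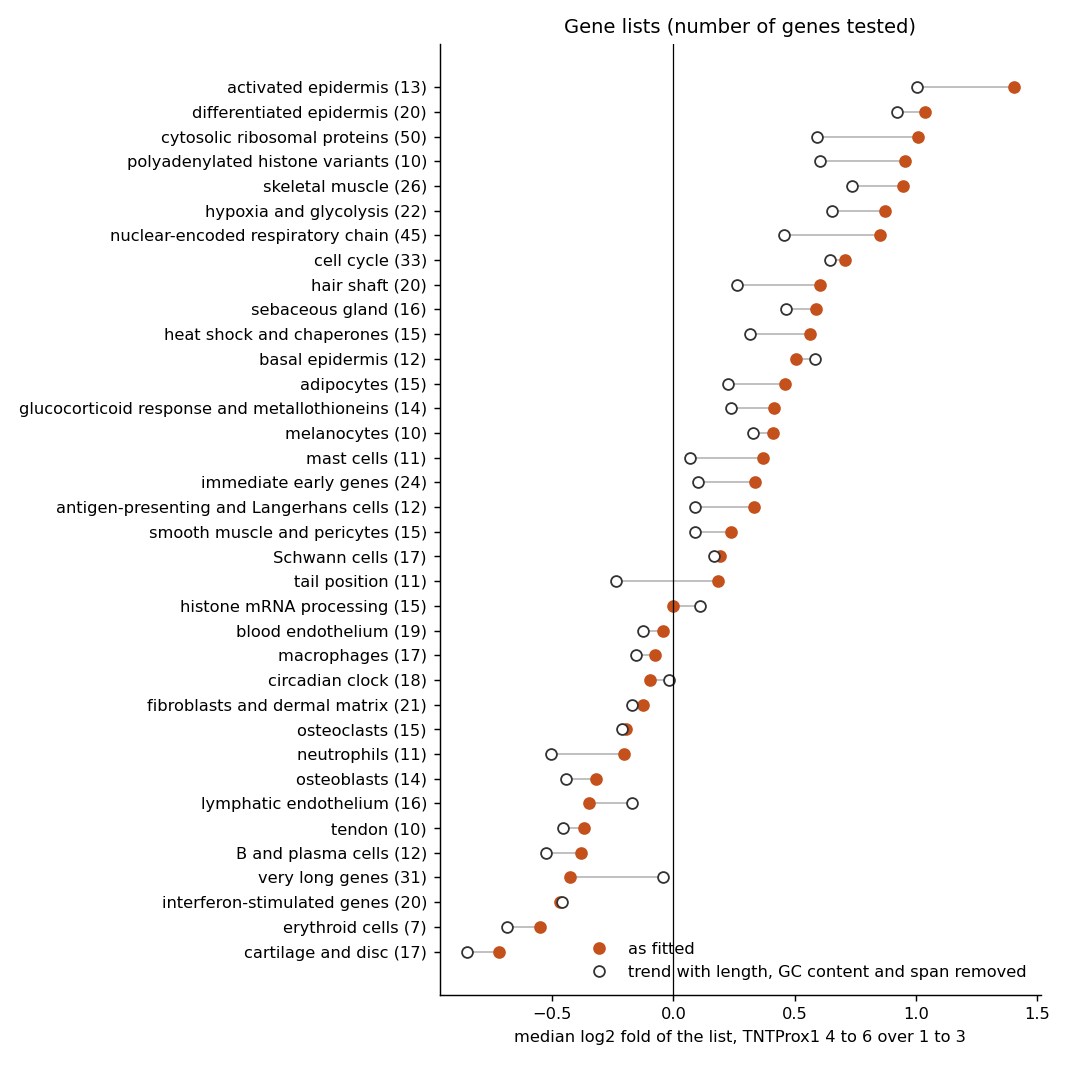
Median log2 fold of TNTProx1 4 to 6 over 1 to 3 for the gene lists whose members have annotated lengths, as fitted (filled) and after removing the trend with length, GC content and span (open). Epidermal lists at 1.04 and 1.40 and cartilage and disc at -0.72 mark the ends, ribosomal proteins go from 1.01 to 0.59 and very long genes from -0.42 to -0.04.

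The remaining genes with the largest folds downwards were of mixed kinds. Spaca6, a sperm membrane protein, had 73.5, 71.8 and 57.7 CPM against 10.2, 15.5 and 13.3 CPM (-2.38 ± 0.19), and its gene spans the microRNA genes Mir99b, Mirlet7e and Mir125a. Cspp1, a centrosomal protein, had 68.4, 57.2 and 57.6 CPM against 13.2, 19.8 and 17.9 CPM (-1.85 ± 0.18). Ryr3, a calcium release channel, had -1.85 ± 0.27, the GABA receptor subunit gene Gabbr1 -1.77 ± 0.28, Csmd1 -1.66 ± 0.29 and the transporter gene Slc38a6 -1.66 ± 0.24. Amn1 had 58.8, 64.3 and 50.9 CPM against 17.0, 21.5 and 15.7 CPM (-1.68 ± 0.17), and Ms4a14 -1.73 ± 0.24. In Csmd1, with 14.8, 26.4 and 17.5 CPM against 5.02, 8.13 and 5.41 CPM, the spread within libraries 1 to 3 exceeded the gap between the sets. Ryr3, Csmd1 and Gabbr1 are best known from brain or muscle and are at low levels here.

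The TNTSham libraries stood with TNTProx1 1 to 3 when the sets were chosen, and the following values describe how near they lay. On a line from the mean of libraries 1 to 3 at 0 to the mean of libraries 4 to 6 at 1, TNTSham lay at 0.0959 to 0.379, TNTProx1 4, 5 and 6 at 1.22, 0.844 and 0.933. Of the 3261 genes set apart lower, the TNTSham median was nearer to libraries 1 to 3 in 2876 (88.2%), and all of libraries 4 to 6 lay outside the TNTSham range in 1999. Of the 1514 genes set apart higher it was nearer in 904 (59.7%), and libraries 4 to 6 lay outside the range in 789. Libraries 1 to 3 lay outside the TNTSham range in 225 of the lower genes and 435 of the higher ones.

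Within TNTSham the same RNA classes varied over a smaller range. TNTSham 4, 5 and 6 had TEC shares of 0.701, 0.621 and 0.614% and Malat1 levels of 16814, 16316 and 11727 CPM, and the other 4 had 0.378 to 0.475% and 8979 to 9314 CPM. The libraries so fell into a group of 3 and a group of 4, neither large enough for a correlation within it. Their shares of replication-dependent histones, from 0.0166 to 0.0369%, did not approach those of TNTProx1 4 to 6. Which of the differences between libraries 4 to 6 and 1 to 3 come from how RNA was taken or kept and which from the pieces of tail was not tested, since the labels record neither.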

How the data were processed

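Ribosome-depleted total RNA of 13 mouse tail samples was sequenced from a stranded kit, per the labels' protocols. The deposited table holds raw counts per gene, made with fastp 0.20.1, HISAT2 2.2.1 on GRCm39 and featureCounts of Subread 2.0.2, per the submitters' processing notes, which also name DESeq2 1.34.0 and R 4.1.2. The sources used here do not give the strand setting, the annotation release or the treatment of reads with several alignments.

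TNTProx1 4 to 6 and 1 to 3, the 42 gene lists and the measures were chosen with earlier results of these data known. Counts were scaled by TMM over all 13 libraries (edgeR 4.0.16 under R 4.3.3), filterByExpr left 22968 genes over the 6 TNTProx1 libraries, and log2 folds with SE came from glmQLFit on these 6 with the set alone. No p-value was taken from that contrast. The fold estimates were checked on simulated counts. Of 55357 genes 52081 matched GENCODE M21, an annotation of GRCm38, used for symbols, classes, overlaps, transcript length, GC content, span and the stem-loop search. Length, GC content and exon number were those of the longest annotated transcript of each gene. Of 793 listed genes 775 were tested. Shares of counts use unscaled totals. A gene was set apart at a fold of at least 2 with no overlap of 3 against 3 libraries.

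Named genes were Prox1 and Malat1, in each direction the 12 protein-coding genes (without histones and gene-model symbols) and the 6 noncoding or unmatched genes of largest fold among those set apart with a mean of at least 10 CPM, the 6 histone genes and 2 variants of highest mean, and from each list 3 members of largest fold where at least 1 of 3 members was set apart in 1 direction, otherwise the 2 of highest mean; 1 gene so chosen is not reported here. Stem-loops on either side of a loop of 4 bases were searched as 16 bases with the stem pattern of known histone messages, in the sense strand of all transcripts. In TNTSham, which holds 7 libraries, the TEC share was related to 7 measures by exact two-sided permutation of Pearson's r (5040 permutations, smallest p 0.000198), adjusted by the Benjamini-Hochberg method. Alternatives were DESeq2 1.42.0 size factors and folds, upper quartile scaling, TMM from protein-coding genes, other low-count filters and folds, protein-coding genes only, and leaving out each library. TMM on the 6 libraries alone and removal of a linear trend with length, GC content and span were chosen after seeing the data. Counts on close copies, such as histone and mitochondrial genes, are uncertain.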

Additional observations from a re-analysis of the deposited data

Results flagged for a closer look

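In TNTProx1, taken as 6 libraries, 67 shares and summed list levels were checked for a library far from the others. The limit picks out about 1 in 20 such checks by chance where all 6 libraries come from one distribution. These 6 were chosen as a pair of separate sets and the measures overlap. The 2 results below therefore cannot be set against a chance rate and are descriptions only. TNTProx1 1 had a mitochondrial ribosomal RNA share of 0.0635% of counts, where the other 5 libraries had 0.0181 to 0.0320%. TNTProx1 2 had a summed level of 1978 CPM over the lymphatic endothelium list, where the other 5 had 1122 to 1403 CPM. It is also the TNTProx1 library with the highest Prox1, a member of that list, at 72.9 CPM, and the one with the lowest epidermal sums.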

How the results depend on the processing

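At a fold of 1.5 there were 3493 genes set apart higher and at a fold of 4 there were 162, against 1514. Lower genes were 5836 without a low-count filter, 1930 at 1 CPM in 3 samples and 1777 at a fold of 4, against 3261. With protein-coding genes only the counts were 857 and 708. With each TNTProx1 library left out in turn the counts were 1467 to 1930 higher and 3324 to 3838 lower. The shares of 9 RNA classes and the 4 gradients with gene features kept their direction under every alternative run for them. Of 42 lists 36 kept the sign of their median under all left-out libraries and scalings, among them all 8 with at least 1 in 3 members set apart. The exceptions were circadian clock, histone mRNA processing, smooth muscle and pericytes, fibroblasts, macrophages, and B and plasma cells. The 7 TNTSham libraries fell into groups of 3 and 4, so a relation across them cannot be tested apart from that split, and the values are given for completeness. Malat1 and the TEC share had r = 0.91 (exact permutation p = 0.00675, adjusted 0.0472) and rho = 0.68 (exact permutation p = 0.110, adjusted 0.324). Without TNTSham 4 and 5, the farthest from the median, r was 0.88 and did not pass (n = 5). So few libraries have few pairings, and a pass after adjustment could hardly be reached, so nothing is read from it. Leaving out each library gave r from 0.848 to 0.943. The other 6 relations did not pass (adjusted exact permutation p = 0.169 to 0.727). Without TNTSham 4 and 5 that of the histone share turned from -0.49 to 0.62 and that of skeletal muscle from -0.15 to 0.38. Leaving out each library gave -0.625 to 0.362 for skeletal muscle and 0.531 to 0.887 for snoRNA host genes, whose relation passed without TNTSham 7. The cause was not tested. No paired analysis was possible because the sets share no replicate number in the labels. Depth limits genes under about 1 CPM, where filters changed the counts most.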

Other observations

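Some energy and stress genes stood higher in TNTProx1 4 to 6, where 6.59% of all tested genes were set apart higher. Of 22 hypoxia and glycolysis genes 7 were set apart higher and 0 lower at a median log2 fold of 0.87, or 0.65 after the trend with length, GC content and span was removed. Aldoa, the muscle form of aldolase, had 426, 305 and 426 CPM in libraries 1 to 3 and 781, 877 and 789 CPM in libraries 4 to 6 (1.08 ± 0.17), and the pyruvate kinase gene Pkm had 0.75 ± 0.20. Without TNTProx1 2 or without TNTProx1 5 the number set apart was 2, and without TNTProx1 1 it was 12, while DESeq2 size factors or TMM from protein-coding genes gave 3 and upper quartile scaling 1. Chaperones gave 4 higher and 0 lower of 15 at 0.56, with Hsp90ab1 at 0.56 ± 0.20 and Hspa8 at 0.42 ± 0.18. Immediate early genes, which answer handling of tissue within minutes, gave 4 higher and 0 lower of 24 at 0.34. Klf4 had 190, 86.1 and 180 CPM against 329, 348 and 427 CPM (1.28 ± 0.29), and Klf6 had 0.33 ± 0.15. Glucocorticoid response and metallothionein genes gave 1 higher (7.14%, near the share of all genes) and 0 lower of 14 at 0.41, with Sgk1 at 0.38 ± 0.18 and Cdkn1a at 0.91 ± 0.19.

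Some lists lay near or below 0. Interferon-stimulated genes gave 0 higher and 3 lower of 20 at -0.47 (5 lower without TNTProx1 5), and their sums overlapped, at 299, 451 and 222 CPM against 278, 249 and 196 CPM. Ddx58, a sensor of viral RNA, had -0.55 ± 0.17. Circadian clock genes gave 0 higher and 1 lower of 18 at -0.10, with Bhlhe40 at 0.19 ± 0.17 and Clock at -0.03 ± 0.14. Genes of very long span gave 0 higher and 3 lower of 31 (1 without TNTProx1 2) at -0.42, or -0.04 after the trend with length, GC content and span was removed. Among them Zbtb20, a transcriptional repressor, had 619, 771 and 732 CPM against 206, 252 and 405 CPM (-1.30 ± 0.26), and Nfib had -0.31 ± 0.16.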
